A study of Mus musculus with 2 samples.

Results

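The 10 genes described here encode 6 extracellular metalloproteinases (Mmp2, Mmp3, Mmp12, Mmp14, Mmp19 and Adamts4) and the 4 tissue inhibitors of metalloproteinases (Timp1, Timp2, Timp3 and Timp4). They were picked by gene symbol and are 10 of the 24984 gene symbols counted. Transcripts of live mononuclear cells of hind limb muscle, isolated by flow cytometry, were counted by single cell RNA-seq, with 1 library in each of 2 groups. Ctrl mice carried Pax7CreERT2, the R26YFP reporter and intact Yy1 (Yy1+/+), and dKO mice carried the same alleles with both copies of Yy1 floxed (Yy1 f/f). All mice were on the mdx background, which lacks dystrophin and models Duchenne muscular dystrophy, and were of the same sex and age. Both groups received tamoxifen (TMX) for 5 days from the age of 1.5 months, and muscles were taken 1 month later. Pax7 drives the Cre, so recombination is directed to muscle stem cells (MuSCs), and the proteinase and inhibitor genes were measured largely in cells that were not targeted. Each library was made from a pool of 3 mice, so the groups have no replicates. No test was run, and no difference below has a replicate check.

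Matrix metalloproteinases are zinc enzymes that cleave collagens, elastin, proteoglycans and other proteins of the extracellular matrix. Most are secreted as inactive proenzymes, and the TIMPs bind and block the active site. In dystrophic muscle, where fibres die and regrow repeatedly, the balance between these enzymes and their inhibitors is known for its part in matrix turnover, in the entry of immune cells and in fibrosis. Fibro/adipogenic progenitors (FAPs), the stromal cells of muscle, and monocytes and macrophages (MO/MPs) are known sources of both.

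The libraries held 45556596 (Ctrl) and 33815155 (dKO) UMIs (unique molecular identifiers, tags that mark single captured transcripts), and 4010 and 3079 cells were kept. The 2 libraries shared 7 cell barcodes. Clustering without the 10 genes gave 22 clusters, of which 20 were assigned to 12 classes from marker genes. FAP-like cells were 1131 in Ctrl and 1186 in dKO, MO/MP-like cells 1322 and 1010, endothelial cell (EC)-like cells 466 and 179, tenocyte-like cells 147 and 90, smooth muscle/pericyte-like cells 107 and 38, and MuSC-like cells 117 and 30. Yy1, the deleted gene, had 369 UMIs in Ctrl MuSC-like cells and 3 in dKO, against log2 ratios of 0.10 in FAP-like and 0.13 in MO/MP-like cells. Levels below are given as CPM, the UMIs of a gene scaled to 1000000 UMIs of the class. Values in parentheses after a level, share or ratio are its 95% interval (exact Poisson, exact binomial and conditional binomial, respectively), and they cover counting error only. Shares of cells with a UMI come from cells thinned to 2000 UMIs each. Levels were not scaled for gene length, so each gene is compared with itself across cells and not with the other genes.

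Of the 6 proteinases, Mmp3 and Mmp12 are close neighbours in the genome and were counted in different cells. Mmp12 spans chr9:7344381-7369499 and Mmp3 chr9:7445822-7455975, both on the plus strand (GENCODE M21, GRCm38), with 76322 bases between them. They belong to a group of 9 Mmp genes within 1000000 bases of Mmp12, all with an entry in the files. Over both libraries, 91.6% of 6397 Mmp3 UMIs were in FAP-like cells, while 45.7% of 12854 Mmp12 UMIs were in a cluster led by Ear2 and Dcstamp. The class that held most Mmp12 differed between the libraries. In Ctrl it was the MO/MP-like class, with 4575 UMIs (47.6%) against 3842 in the Ear2 and Dcstamp cluster. In dKO, MO/MP-like cells held 667 (20.6%) and that cluster 2035 (62.8%). Mmp13, which lies before Mmp12, had 45.8% of its 2333 UMIs in tenocyte-like cells, where 1 dKO cell held 99.6% of the 810 dKO UMIs, and Mmp8, the neutrophil collagenase, had 67.9% of its 1059 UMIs in neutrophil-like cells. MO/MP-like cells held 639 Mmp13 UMIs in Ctrl and 206 in dKO. Mmp1b, Mmp7 and Mmp20 had 0 UMIs.

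The promoter sequences of Mmp3 and Mmp12 are shown because these neighbouring genes were counted in different cells, and that of Timp1 because it had the largest difference in FAP-like cells among the 8 members that reached 100 UMIs there. They are the 130 bases before a RefSeq transcript start (GRCm38.p6), 5′ to 3′ on the strand of the gene, with capitals for the AP-1 motif TGANTCA and the TATA box TATAAA. Both motifs were searched on both strands of the 250 bases before the start.
Mmp3, chr9:7445692-7445821, plus strand: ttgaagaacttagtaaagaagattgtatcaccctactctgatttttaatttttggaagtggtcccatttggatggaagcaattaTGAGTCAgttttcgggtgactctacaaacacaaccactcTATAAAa
Mmp12, chr9:7347244-7347373, plus strand: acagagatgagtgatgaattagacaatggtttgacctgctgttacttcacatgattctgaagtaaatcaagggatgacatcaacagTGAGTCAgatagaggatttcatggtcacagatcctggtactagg
Timp1, chrX:20870036-20870165, plus strand: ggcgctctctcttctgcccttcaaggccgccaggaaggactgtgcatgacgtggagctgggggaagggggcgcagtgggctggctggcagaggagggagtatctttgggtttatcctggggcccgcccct
The Mmp3 sequence holds the AP-1 motif 46 to 40 bases and TATAAA 7 to 2 bases before the start. The Mmp12 sequence, from the second of 2 RefSeq starts, holds the AP-1 motif 44 to 38 bases before it. This start lies inside the gene span given above, and the other start lies near the beginning of that span. No match was found before the other Mmp12 start or in Mmp14, Timp1, Timp2, Timp3 and Timp4, which are the rest of the 7 members with a promoter entry. Over all 32851 promoters, 6.75% hold this AP-1 motif and 12.4% hold TATAAA. These matches are letters in the sequence, and no binding was measured.

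The first question was which cells of dystrophic muscle carried each transcript. Mmp2 (chr8:92827291-92853420, plus strand), or gelatinase A, cleaves denatured and basement membrane collagens. It was highest in tenocyte-like cells, at 1533 CPM in Ctrl (1472 to 1595) and 1272 in dKO (1198 to 1348). FAP-like cells followed at 823 and 769 CPM. A cluster led by Sfrp5 and Kcna1 came next at 143 and 148 CPM, on 17 and 11 UMIs. Every other class was at or below the 56.3 CPM of Ctrl MuSC-like cells, and FAP-like cells, being many, held 82.5% of all Mmp2 UMIs in Ctrl and 91.1% in dKO. Mmp3 (stromelysin-1, which also activates other proenzymes) was found more narrowly. Outside tenocyte-like and FAP-like cells its highest level was 10.8 CPM, from 1 UMI in dKO neutrophil-like cells. Mmp3 was in 18.8% and 21.6% of FAP-like cells, and in 0 T cell-like or B cell-like cells of either library.

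Mmp14 (chr14:54431612-54445364, plus strand), the membrane-bound proteinase that activates Mmp2 on the cell surface, had a wider spread. It stood at 636 CPM in Ctrl and 604 CPM in dKO tenocyte-like cells, at 573 and 445 in FAP-like cells, and at 493 and 438 in lymphatic EC-like cells, where 1 cell held 61.5% of the Ctrl UMIs. In dKO the intervals of these classes and of the Sfrp5 and Kcna1 cluster (536 CPM) overlapped, apart from tenocyte-like against FAP-like cells, so their order was not resolved. Lower but clear levels were found in smooth muscle/pericyte-like cells (159 and 129.6 CPM), EC-like cells (94.2 and 58.5) and MO/MP-like cells (88.0 and 78.8). T cell-like cells had 1 Mmp14 UMI in each library. Adamts4 (chr1:171250421-171260637, plus strand), an aggrecanase that cleaves aggrecan and versican, was led by vascular cells. It was highest in smooth muscle/pericyte-like cells, at 1408 CPM in Ctrl and 2509.8 in dKO, then in EC-like cells at 723 and 1093 CPM. FAP-like cells, at 263 and 355 CPM, still held 54.1% and 77.0% of its UMIs. The Sfrp5 and Kcna1 cluster had 59.0 CPM in Ctrl and 630.3 in dKO, on 7 and 47 UMIs.

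Mmp12 (macrophage metalloelastase, which cleaves elastin) and Mmp19 (chr10:128790910-128800824, plus strand, a secreted proteinase of basement membrane proteins) were the members of the myeloid cells. Mmp12 was highest in the Ear2 and Dcstamp cluster, at 2834 CPM in Ctrl and 1517 in dKO. This cluster carried the dendritic and macrophage fusion genes Itgax and Dcstamp among its leading genes. Of the marker lists, 13 of 14 MO/MP genes and 4 of 10 dendritic cell genes were enriched in it. The naming rule left it unnamed because its 10 leading genes held 1 dendritic cell marker and no MO/MP marker. Cycling MO/MP-like cells had 574 and 850.0 CPM of Mmp12, and MO/MP-like cells 391 and 91.7. In all other classes Mmp12 was at or below the 23.6 CPM of Ctrl dendritic cell-like cells. Mmp19 was also highest in the Ear2 and Dcstamp cluster, with 1059.9 CPM in Ctrl and 868 in dKO, against 279 and 234 in MO/MP-like cells. Unlike Mmp12, Mmp19 was also present in FAP-like cells, at 114 and 90.3 CPM, which held 26.3% and 32.4% of its UMIs. In T cell-like cells it was at 9.84 and 2.05 CPM.

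**Figure D1:**
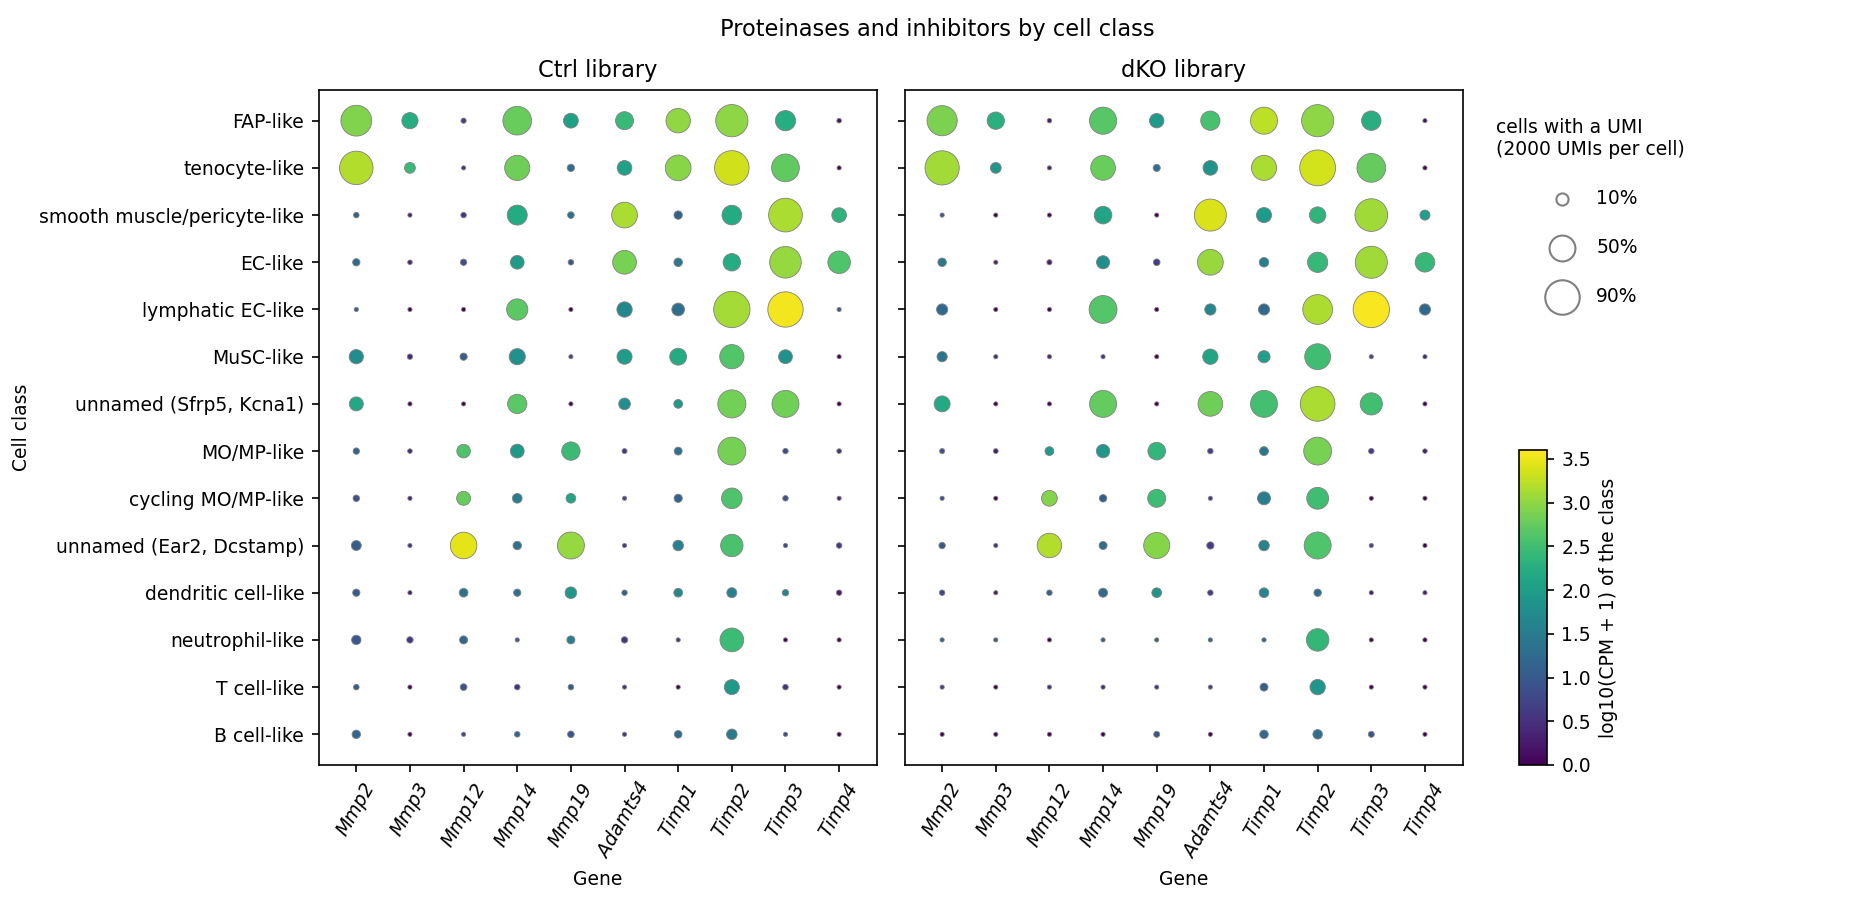
Levels of the 10 genes (columns) in 14 cell classes or unnamed clusters (rows) in Ctrl and dKO. Colour gives log10(CPM + 1) and dot size the percent of cells with a UMI at 2000 UMIs per cell, and large dots lie in FAP-like and tenocyte-like cells for Mmp2 and Timp2, in the Ear2 and Dcstamp cluster for Mmp12, and in vascular classes for Timp3.

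The inhibitors divided the tissue differently. Timp1 (chrX:20870166-20874735, plus strand), a secreted inhibitor that blocks most soluble MMPs but is weak against membrane-bound Mmp14, was highest in FAP-like cells (1009 CPM in Ctrl and 1770.2 in dKO) and tenocyte-like cells (906 and 1408). MuSC-like cells had 155 and 100.2 CPM, and MO/MP-like cells 21.9 and 25.2. T cell-like cells, at 0 and 10.3 CPM, and B cell-like cells, at 16.6 and 15.5, give a level for cells not known as a source, and MO/MP-like cells were close to it. Timp2 (chr11:118301069-118355740, minus strand), which inhibits Mmp2 and also takes part in its activation by Mmp14, was found in every class. It was led by tenocyte-like cells (2186 and 2285 CPM) and lymphatic EC-like cells (1299.7 and 1454), followed by FAP-like cells (979 and 986) and MO/MP-like cells (708 and 733). The Sfrp5 and Kcna1 cluster had 674 CPM in Ctrl, below MO/MP-like cells, and 1368 in dKO, above FAP-like cells, on 80 and 102 UMIs. Its lowest levels were 30.4 and 19.3 CPM in B cell-like cells and 34.9 and 16.9 in dendritic cell-like cells.

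Timp3 (chr10:86300372-86349506, plus strand), the matrix-bound inhibitor that also blocks Adamts4 and several ADAM sheddases, was highest in cells of vessels. Lymphatic EC-like cells had 3387 CPM in Ctrl and 3705 in dKO. Smooth muscle/pericyte-like cells had 1392 and 1205 CPM, and EC-like cells 1058 and 1233, with intervals that overlapped in dKO. Tenocyte-like cells had 522 and 564 CPM, and the Sfrp5 and Kcna1 cluster 666 and 322, on 79 and 24 UMIs. FAP-like cells stood lower, at 168 and 182 CPM, and MO/MP-like cells at 5.82 and 3.44. Timp4 (chr6:115241892-115252205, minus strand), an inhibitor known from heart, vessels and fat, was counted almost wholly in EC-like cells (404 and 255 CPM) and smooth muscle/pericyte-like cells (210.5 and 99.4 CPM). EC-like cells held 83.0% of Timp4 UMIs in Ctrl and 84.7% in dKO. In T cell-like, B cell-like, tenocyte-like and neutrophil-like cells it had 0 UMIs in both libraries.

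**Figure D2:**
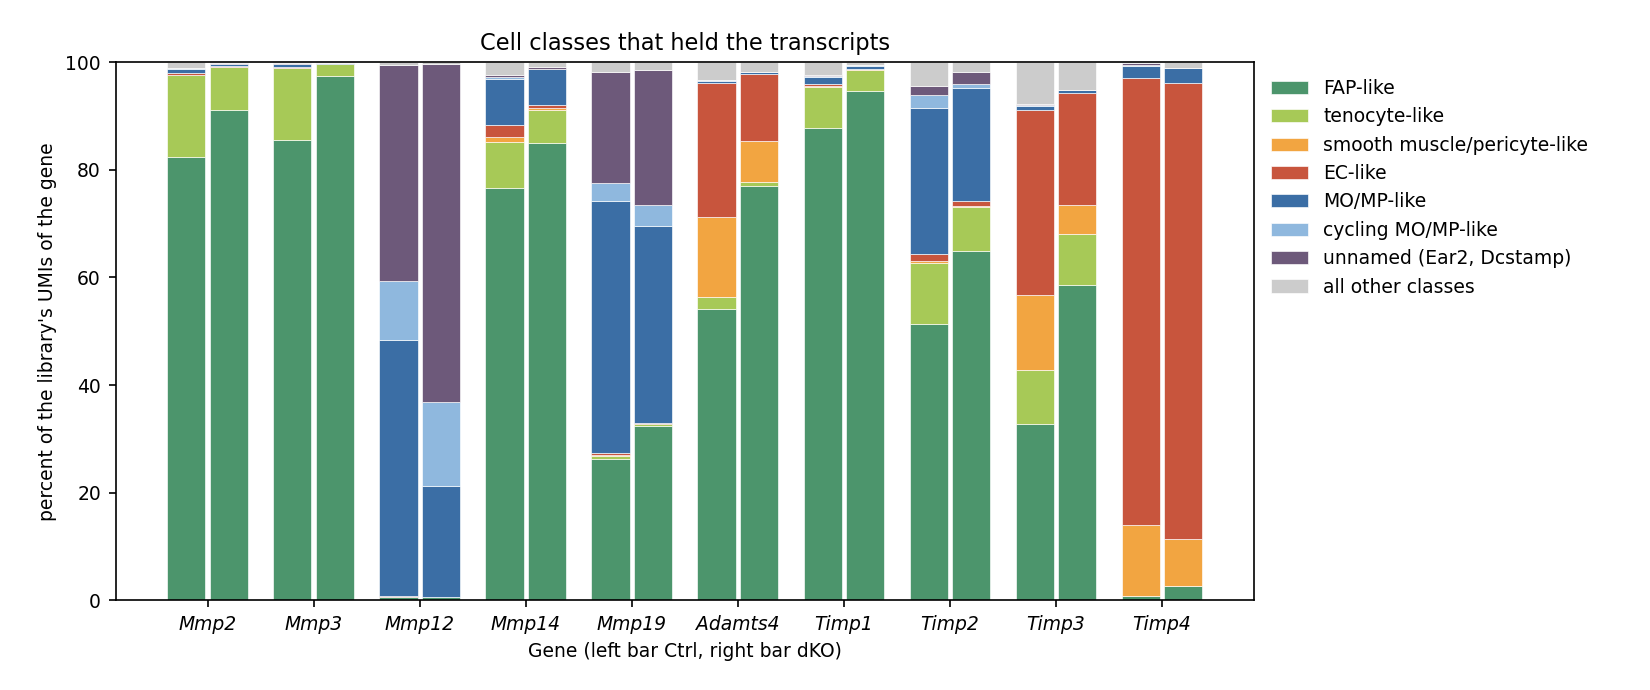
Percent of each gene's UMIs (vertical axis) held by each class in Ctrl (left bar) and dKO (right bar). FAP-like cells held 82.5% and 91.1% of Mmp2 and 87.7% and 94.6% of Timp1, EC-like cells most of Timp4, and myeloid cells most of Mmp12.

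The classes that carried each gene differed in size between the libraries, and FAP-like cells held 39.3% of all UMIs in Ctrl and 54.8% in dKO. Summed over all kept cells, Timp1 stood at 452 CPM in Ctrl and 1026 in dKO (log2 ratio 1.18), and Timp4 at 31.9 and 8.62 (-1.89). These sums hold both the number of cells of each class and the level per class. The comparisons below were therefore made within classes. A gene was counted as different where it was at least 1.5-fold higher or lower with at least 100 UMIs in both libraries together.

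In FAP-like cells, Timp1 was the 1 member past 1.5-fold of the 8 with enough UMIs, and it was higher in dKO. Over all 10456 genes measured there, 2.69% were higher by this fold and 2.8% lower. Its 16172 Ctrl UMIs gave 1009 CPM (994 to 1025) and its 29483 dKO UMIs gave 1770.2 CPM (1750.1 to 1791), a log2 ratio of 0.81 (0.78 to 0.84). No cell held more than 1.96% of these UMIs in dKO or 2.38% in Ctrl. FAP-like cells with a Timp1 UMI were 44.4% (41.4 to 47.4) in the Ctrl library and 54.5% (51.6 to 57.4) in the dKO library, with 63 and 54 cells too shallow to be thinned. Before thinning, 72.0% and 79.9% had one, with medians of 12100 and 12092 UMIs per cell. In T cell-like cells, with medians of 3217 and 3081 UMIs per cell, the thinned shares were 0% and 3.54%.

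**Figure D3:**
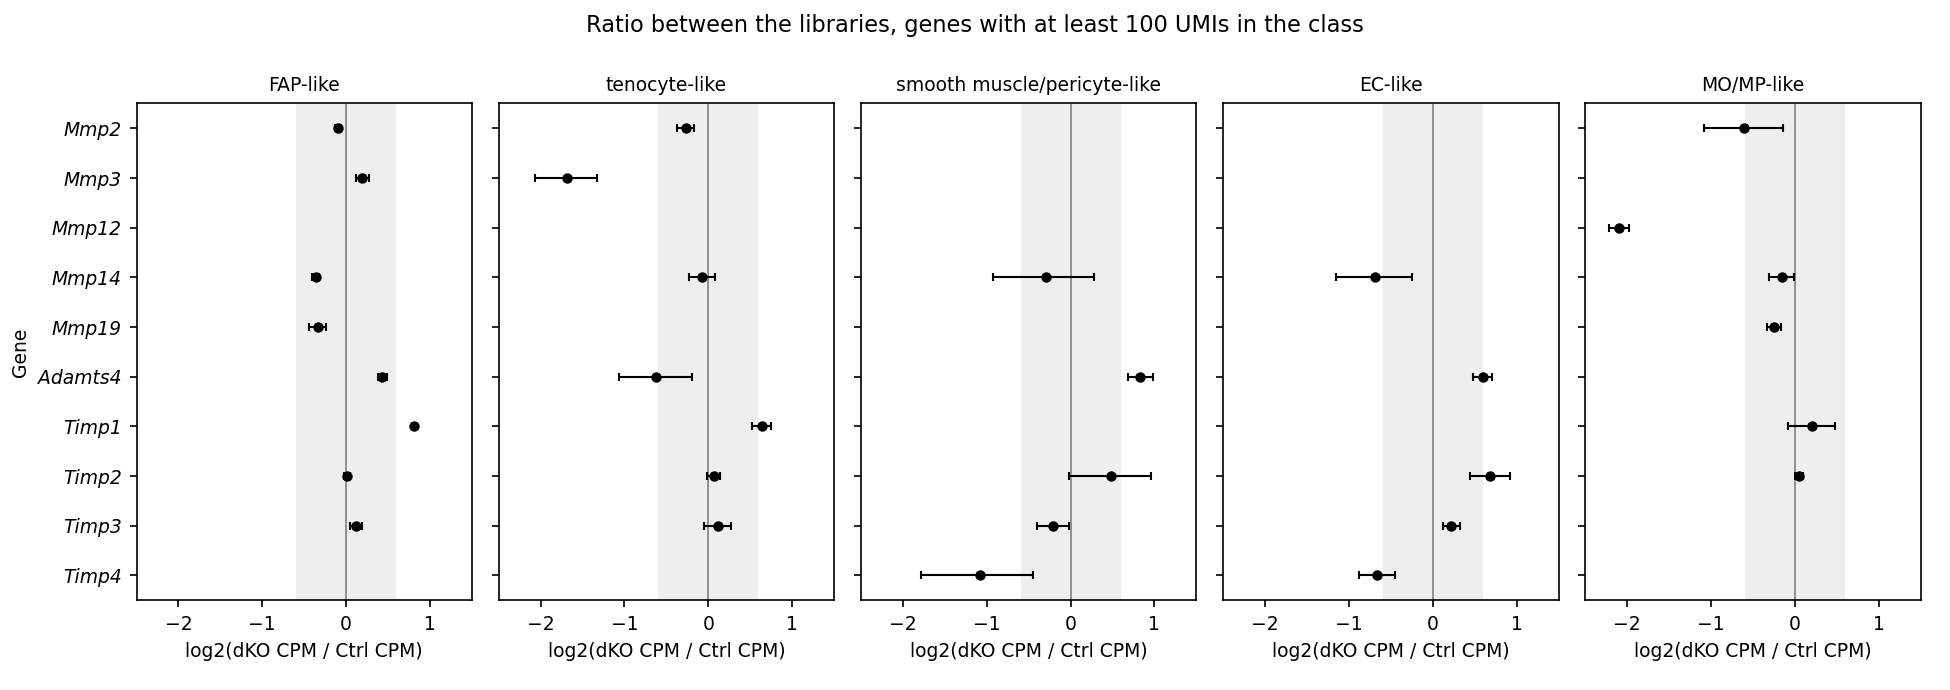
Log2 ratio of dKO to Ctrl for each member with at least 100 UMIs in 5 classes. Points are ratios, bars are 95% counting intervals and the grey band is within 1.5-fold. Timp1 lies above the band in FAP-like and tenocyte-like cells, and Mmp12 in MO/MP-like cells lies farthest below it.

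The FAP-like cells fell into 4 clusters, and Timp1 was higher in dKO in each of them. Cluster 0, led by Inmt and C7 (526 Ctrl and 528 dKO cells), had 438 CPM in Ctrl and 619 in dKO. Cluster 2, led by Postn, C1qtnf3 and Cthrc1 (347 and 333 cells), had 1093 and 1740.0 CPM. Cluster 7, led by Cxcl13 and Efhd1 with Pi16 (137 and 157 cells), had 286 and 481 CPM. The highest level was in cluster 8, led by Cxcl5 and Il1rl1 together with cell cycle genes (121 and 168 cells), at 2088 and 3791 CPM. The log2 ratios were 0.50, 0.67, 0.75 and 0.86 in that order, so those of clusters 2, 7 and 8 passed 1.5-fold and that of cluster 0 did not. Cluster 8 also held more cells in dKO, and with the 4 clusters weighted equally in both libraries the log2 ratio of Timp1 was 0.76.

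Mmp14 and Mmp19 were lower in dKO FAP-like cells within 1.5-fold. Mmp14 stood at 573 CPM (561 to 585) in Ctrl and 445 (435 to 455) in dKO, a log2 ratio of -0.36 (-0.41 to -0.32). It was lower in all 4 clusters, with log2 ratios from -0.48 in cluster 2 to -0.17 in cluster 8. Mmp19 was lower at 114 against 90.3 CPM (-0.34, -0.44 to -0.24). Mmp2, the substrate of Mmp14, differed little, with 823 CPM in Ctrl and 769 in dKO (log2 ratio -0.10, -0.13 to -0.06), and its direction was not shared by the clusters: the log2 ratio was -0.17 in cluster 0, 0.14 in cluster 2, -0.23 in cluster 7 and 0.08 in cluster 8.

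Adamts4 and Mmp3 were higher in dKO FAP-like cells, again within 1.5-fold. Adamts4 had 263 CPM (255 to 271) in Ctrl and 355 (346 to 364) in dKO, a log2 ratio of 0.43 (0.38 to 0.49). Its clusters divided: the log2 ratio was 0.62 in cluster 0, 0.59 in cluster 2, 0.56 in cluster 7 and -0.16 in cluster 8, the cluster with most Timp1. Mmp3 showed the same division, from 144 to 243 CPM in cluster 7 (log2 ratio 0.75, on 185 and 421 UMIs) and from 113 to 91.2 CPM in cluster 8 (-0.31, -0.52 to -0.09). Over all FAP-like cells Mmp3 had 167 and 191 CPM (0.20, 0.12 to 0.27). The other inhibitors were nearly level: Timp2 had 979 and 986 CPM (log2 ratio 0.01, -0.02 to 0.04). Timp3 had 168 and 182 CPM (0.12, 0.04 to 0.19), but -0.05 with the 4 clusters weighted equally. The median log2 ratio was 0.06 over the 8 members and -0.06 over all measured genes. Beside these results, the 8 marker genes of neutrophils summed to 38.2 CPM in FAP-like cells of Ctrl and 5.52 in those of dKO, those of MO/MPs to 277 and 332, and those of the cell cycle to 281 and 235. The 12 EC markers had 1000 UMIs in Ctrl and 267 in dKO. Tenocyte markers, of which 7 were measured, summed to 2187 and 2025 CPM, with 4 higher, 1 lower and 2 within 1.5-fold. Their part in the results was not tested.

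**Figure D4:**
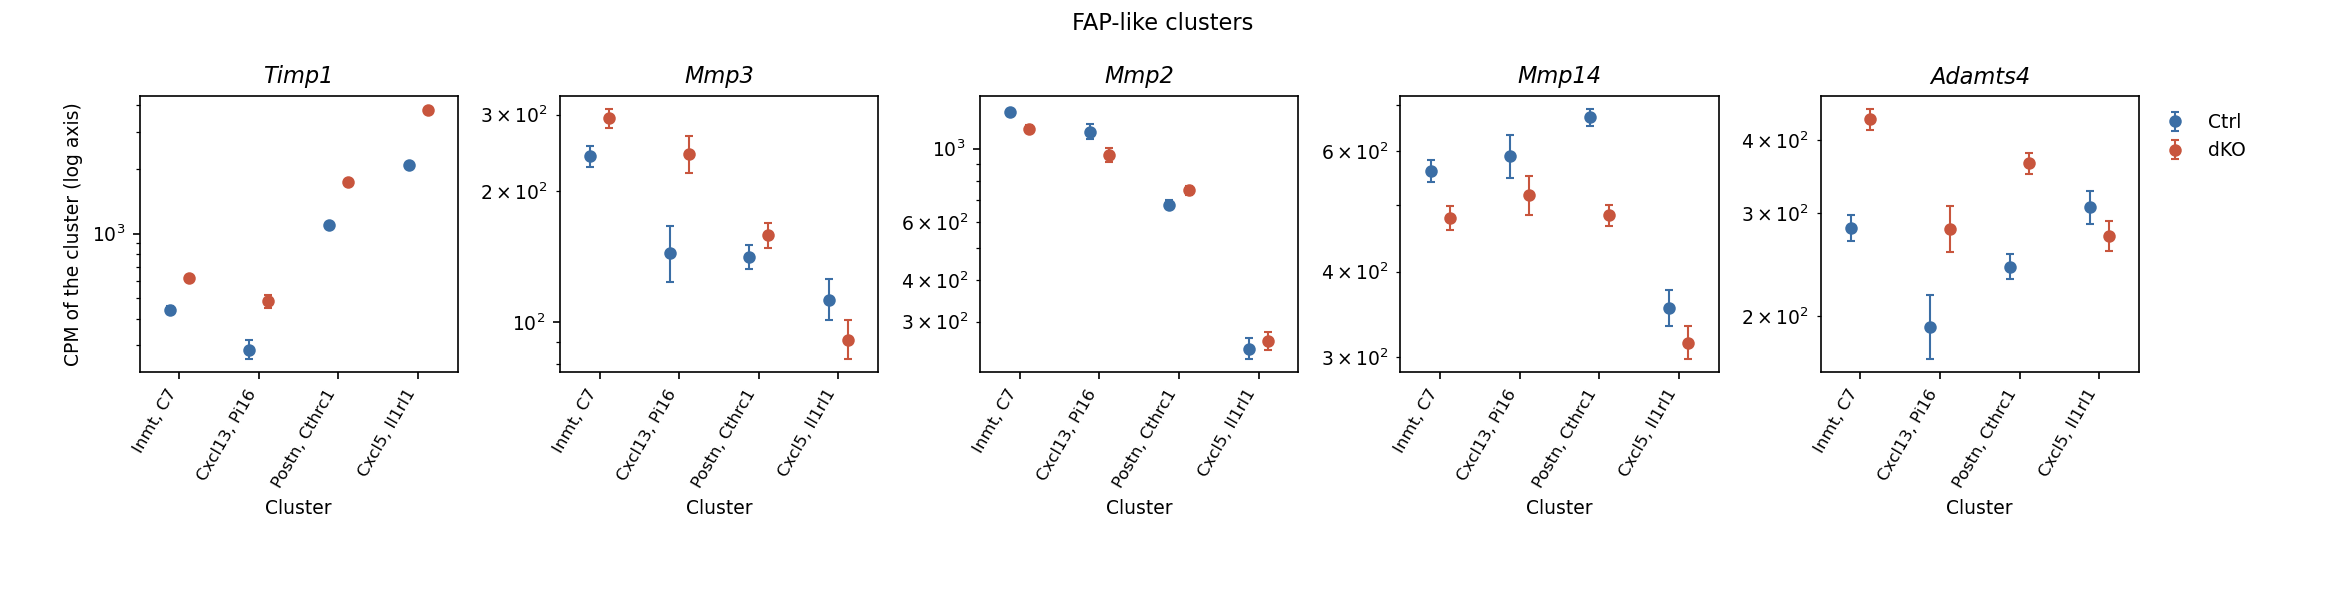
CPM (log axis) of Timp1, Mmp3, Mmp2, Mmp14 and Adamts4 in the 4 FAP-like clusters in Ctrl and dKO, with 95% Poisson intervals. Timp1 is higher in dKO in every cluster and Mmp14 lower in every cluster, while Adamts4 and Mmp3 are lower in dKO in cluster 8 and higher in the other 3.

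In tenocyte-like cells, the fibroblasts of tendon and muscle connective tissue, Timp1 was again higher in dKO. Of 7 measured members 1 was higher and 2 were lower by 1.5-fold, against 2.94% higher and 3.6% lower over all genes in this class. Timp1 stood at 906 CPM (859.7 to 954) in Ctrl and 1408 (1331 to 1489) in dKO, a log2 ratio of 0.64 (0.53 to 0.75), with 18.3% of its dKO UMIs in 1 cell. The share of cells with a Timp1 UMI did not follow, at 49.3% in Ctrl (40.9 to 57.8) and 46.8% in dKO (35.5 to 58.4). Without the cell with most UMIs in each library the log2 ratio was 0.52. Mmp3 was lower, at 265 and 82.4 CPM (-1.68, -2.06 to -1.32), but 66.5% of its 418 Ctrl UMIs were in 1 cell. Without the top cells the log2 ratio of Mmp3 was -0.68, and 7.64% and 7.59% of tenocyte-like cells had a UMI. Adamts4 was lower, at 109.5 and 71.1 CPM, on 173 and 63 UMIs (-0.62, -1.06 to -0.20), but with no doublets removed its log2 ratio was -0.21, within 1.5-fold. Mmp2 had 1533 and 1272 CPM (-0.27, -0.37 to -0.17). For Mmp14, Timp2 and Timp3 the intervals of the log2 ratio included 0 (-0.08, 0.06 and 0.11). With no doublets removed Timp2 and Timp3 were at -0.03 and -0.00. The median log2 ratio was -0.08 over the 7 members and 0.00 over all measured genes. Beside these values, FAP markers in tenocyte-like cells summed to 49583 CPM (Ctrl) and 62004 CPM (dKO). Smooth muscle and pericyte markers were at 298 and 457, and MuSC markers at 941 and 609. EC markers were at 116 and 27.1, and neutrophil markers at 44.3 and 5.64. Their part in the tenocyte-like values was not tested.

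Adamts4 was higher in dKO in both classes of the blood vessel. In smooth muscle/pericyte-like cells it had 1408 CPM (1328 to 1491) in Ctrl and 2509.8 (2309.9 to 2722) in dKO, a log2 ratio of 0.83 (0.69 to 0.98), and was found in 49.5% and 77.4% of cells. In EC-like cells it had 723 (691 to 756) and 1093 CPM (1025 to 1165), a log2 ratio of 0.60 (0.48 to 0.71). The ratio was just past 1.5-fold, and was within it at 0.55 with no doublets removed, 0.58 without the top cell of each library and 0.47 by the mean of each cell's own CPM. All 3 EC-like clusters had a higher level in dKO, but only cluster 5, led by Car4 and Gpihbp1, passed 1.5-fold, with 435 and 794 CPM (0.87). Cluster 14, led by Selp and Sele, had 1278 and 1508 CPM (0.24), and cluster 19, led by Gkn3 with Gja5, had 709.7 and 875 (0.30, -0.00 to 0.61). B cell-like cells had 2.76 and 0 CPM of Adamts4 and T cell-like cells 2.46 and 4.10.

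Timp4 was lower in dKO in both vascular classes. EC-like cells had 404 CPM (380.4 to 429) in Ctrl and 255 (222 to 291) in dKO, a log2 ratio of -0.67 (-0.88 to -0.46). Nearly all Timp4 was in cluster 5, with 1039 of 1081 UMIs in Ctrl and 213 of 222 in dKO. This cluster held 292 of 466 Ctrl EC-like cells and 97 of 179 in dKO, and within it Timp4 stood at 668 and 608 CPM, a log2 ratio of -0.14 (-0.36 to 0.08). Its cells had medians of 3970 and 2787 UMIs, and it held 1554530 of the 2674977 UMIs of Ctrl EC-like cells and 350227 of 871610 in dKO. In cluster 19 Timp4 was lower, on 35 and 2 UMIs, a dKO to Ctrl ratio of 0.0993 (0.0116 to 0.387), and cluster 14 had 7 UMIs in each library. By the mean of each cell's own CPM the log2 ratio of Timp4 over all EC-like cells was -0.46, within 1.5-fold. The part of depth and of cluster shares in this difference was not tested. In smooth muscle/pericyte-like cells Timp4 had 173 and 23 UMIs (-1.08, -1.78 to -0.45).

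The values of Timp2 and Timp3 in EC-like cells also depended on the clusters. Over all EC-like cells, 2 of 5 measured members were higher by 1.5-fold (Adamts4 and Timp2) and 2 were lower (Timp4 and Mmp14), against 4.59% and 7.36% of all genes. Timp2 had 161 CPM (146 to 177) and 259 (227 to 295), a log2 ratio of 0.69 (0.45 to 0.92). Within clusters 14 and 19, which hold most of it, the log2 ratio was 0.24 (-0.06 to 0.54) and 0.09 (-0.37 to 0.54). With the 3 clusters weighted equally the log2 ratios over EC-like cells were 0.20 for Timp2, -0.31 for Timp4 and 0.39 for Adamts4. Mmp14 had 94.2 and 58.5 CPM, on 252 and 51 UMIs (-0.69, -1.15 to -0.25), and with no doublets removed it was within 1.5-fold (-0.41). It was lower in all 3 clusters, at -0.77 in cluster 5, -0.53 in cluster 14 and -0.62 in cluster 19. The intervals in clusters 14 and 19 included 0. Timp3 had 1058 and 1233 CPM (0.22, 0.12 to 0.32), and its clusters divided. In cluster 19 it stood at 1681 and 2712 CPM (0.69, 0.51 to 0.87), against log2 ratios of -0.07 in cluster 5 and -0.23 in cluster 14. The median log2 ratio was 0.22 over the 5 members and -0.03 over all measured genes. Smooth muscle and pericyte markers in EC-like cells summed to 982 CPM (Ctrl) and 649 CPM (dKO), and MuSC markers to 562 and 927. Erythroid markers were at 101 and 37.9, and neutrophil markers at 38.9 and 9.18. The part of these in the EC-like values was not tested.

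In smooth muscle/pericyte-like cells 1 of 5 measured members was higher (Adamts4) and 1 lower (Timp4) by 1.5-fold, against 7.4% and 10.8% of all genes. Timp3 had 1392 CPM (1312 to 1475) and 1205 (1068 to 1355), a log2 ratio of -0.21 (-0.40 to -0.02), while the intervals of Timp2 (0.48) and Mmp14 (-0.30) included 0. All 3 changed sign under another setting: by the mean of each cell's own CPM Timp3 was at 0.08 and Mmp14 at 0.12, and with no doublets removed Timp2 was at -0.21. The median log2 ratio was -0.21 over the 5 members and 0.03 over all measured genes. This class mixes smooth muscle cells and pericytes, and its makeup moved with the results. The pericyte marker Rgs5 had 8525 CPM in Ctrl and 3676 in dKO (-1.21), and the log2 ratio was -0.80 for Kcnj8, -1.38 for Abcc9 and -0.87 for Higd1b, against 0.54 for the smooth muscle marker Acta2 and 0.49 for Tagln. Over the whole list of 12 smooth muscle and pericyte markers the sum was 31125 and 32105 CPM, with 4 genes lower, 1 higher and 7 within 1.5-fold. EC markers in this class summed to 6808 and 3681 CPM. Their part in the values of Adamts4 and Timp4 was not tested, and pericytes were not separated in this clustering. With no doublets removed, a smooth muscle/pericyte-like cluster of 47 Ctrl and 18 dKO cells led by Colec11, Kcnj8, Rerg and Abcc9 stood apart from the one led by Pln, Myh11 and Cnn1. Over both clusters together the log2 ratio was then 0.50 for Adamts4, within 1.5-fold, and -0.94 for Timp4. Adamts1 and Adamts9, relatives of Adamts4 named after their values were seen, were the 2 of 18 other ADAMTS genes measured here, and both were higher, at 1789.8 and 2804 CPM for Adamts1 (0.65) and 108 and 242 for Adamts9 (1.16). In EC-like cells Adamts1 had a log2 ratio of 0.46 and Adamts9 of 0.87.

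In MO/MP-like cells, Mmp12 was lower in dKO by the largest margin of the 31 ratios with at least 100 UMIs in the 5 classes compared. The 4575 Ctrl UMIs gave 391 CPM (380.0 to 403) and the 667 dKO UMIs gave 91.7 CPM (84.9 to 98.9), a log2 ratio of -2.09 (-2.21 to -1.98). A dKO cell held 27.0% of these UMIs by itself, and leaving out the richest cell of each library gave a log2 ratio of -2.42. MO/MP-like cells with a Mmp12 UMI were 12.8% (10.9 to 14.8) in the Ctrl library and 4.64% (3.36 to 6.22) in the dKO library, with 149 and 105 cells too shallow to be thinned. Before thinning, 18.5% and 8.51% had one, with medians of 7582 and 6603 UMIs per cell. In FAP-like cells, with medians of 12100 and 12092, the thinned shares were 0.749% and 0.177%.

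Mmp12 was concentrated in cluster 6 of the MO/MP-like cells, led by Rnf128, Spp1 and Atp6v0d2 (232 Ctrl and 148 dKO cells). There it stood at 1181 CPM in Ctrl and 310.4 in dKO, a log2 ratio of -1.93 (-2.07 to -1.79), in 39.0% and 15.3% of cells, with 38.4% of the dKO UMIs in 1 cell. Cluster 1, led by Apoe and Ms4a7, had a low level with a similar ratio, at 119 and 27.5 CPM (-2.12, -2.44 to -1.81). Cluster 3, led by Slpi and Clec4e with Chil3 and Ly6c2, went the other way on 68 and 90 UMIs, of which 56.7% in dKO were in 1 cell. The difference was thus in the 2 clusters that held most Mmp12 of this class. With the 4 clusters weighted equally the log2 ratio of Mmp12 was -1.71.

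The Ear2 and Dcstamp cluster, which has the highest Mmp12, showed a smaller difference in the same direction. It had 2834 CPM (2745 to 2925) in 98 Ctrl cells and 1517 (1451 to 1584) in 119 dKO cells, a log2 ratio of -0.90 (-0.98 to -0.82), with a UMI in 52.6% and 44.5% of cells. Cycling MO/MP-like cells had more Mmp12 in dKO, at 574 and 850.0 CPM (0.57), but 41.2% of the Ctrl UMIs and 59.4% of the dKO UMIs were in 1 cell each, and 13.6% and 17.6% of cells had a UMI. Counting the Ear2 and Dcstamp cluster and the cycling cells with the MO/MP-like cells, a choice made after the values were seen, gave a log2 ratio of -0.87. Mmp12 then no longer had the largest margin, since Mmp3 was at -1.68 in tenocyte-like cells and Timp4 at -1.08 in smooth muscle/pericyte-like cells. The size of the difference in Mmp12 therefore depended on which cells were taken as MO/MPs, and its direction was the same in both groupings.

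The other members of MO/MP-like cells differed less. Mmp19 had 279 CPM (269 to 289) in Ctrl and 234 (223 to 246) in dKO, a log2 ratio of -0.25 (-0.34 to -0.17). With the cycling cells and the Ear2 and Dcstamp cluster counted in, the log2 ratio was -0.0042. Mmp19 was highest in cluster 3, where Mmp12 was scarce, and there the libraries were level, at 481 and 485 CPM, while in cluster 6 it was 388 and 281 (-0.46). Timp2 had 708 and 733 CPM (0.05, -0.00 to 0.10) and was highest in cluster 4, led by Fcna and Cd163, at 999 and 1143 CPM. Mmp14 had 88.0 and 78.8 CPM (-0.16, -0.31 to -0.01), and the interval of Timp1 (0.20) included 0. Mmp2 was past 1.5-fold on 135 and 55 UMIs, at 11.5 and 7.56 CPM. That level was like those of T cell-like (9.84 and 4.10, on 4 and 2 UMIs) and B cell-like cells (13.8 and 0, on 5 and 0 UMIs). How much of it is background was not tested. With Mmp2 counted, 2 of 6 measured members were lower and 0 higher by 1.5-fold, against 3.05% lower and 4.66% higher over all genes. The median log2 ratio was -0.21 over the 6 members and 0.00 over all measured genes. Beside these results, FAP markers in MO/MP-like cells summed to 590.3 CPM in Ctrl and 411 in dKO, neutrophil markers to 216 and 104, and erythroid markers to 11.2 and 54.0, and their part in the results was not tested.

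**Figure D5:**
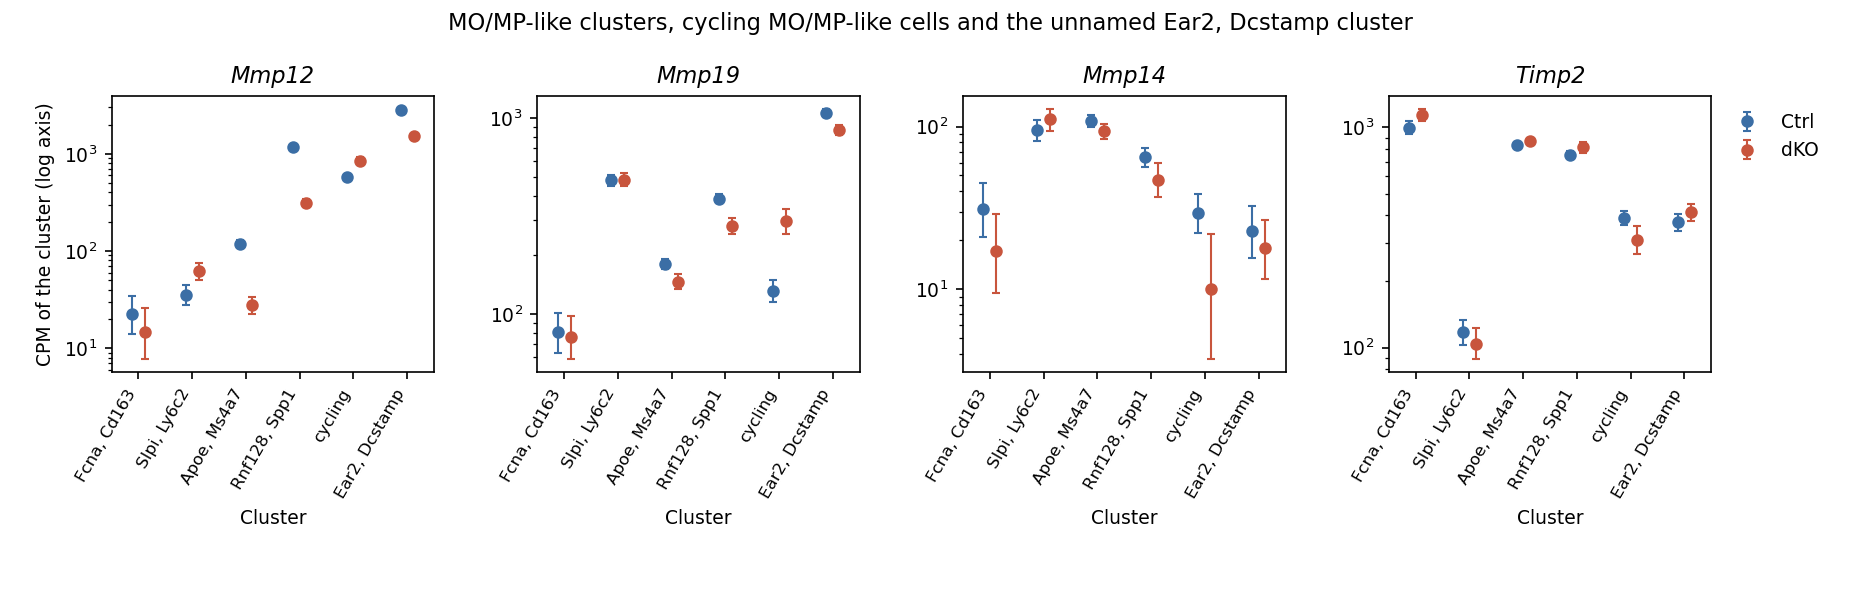
CPM (log axis) of Mmp12, Mmp19, Mmp14 and Timp2 in the 4 MO/MP-like clusters, the cycling MO/MP-like cluster and the Ear2 and Dcstamp cluster in Ctrl and dKO, with 95% Poisson intervals. Mmp12 is lower in dKO in clusters 1 and 6 and in the Ear2 and Dcstamp cluster, and Timp2 is close to level throughout the MO/MP-like clusters.

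MuSC-like cells, the cells in which Yy1 was deleted, were 117 in Ctrl and 30 in dKO, and the members counted there were largely those of stromal cells. Timp2 had 419 CPM (393 to 446) in Ctrl and 317 (274 to 364) in dKO, a log2 ratio of -0.40 (-0.63 to -0.18). Timp1 had 155 and 100.2 CPM (-0.63, -1.05 to -0.24), and Adamts4 had 97.8 and 128 CPM (0.38, -0.00 to 0.76). Mmp2 had 130 UMIs in Ctrl and 14 in dKO (-1.31, -2.23 to -0.52). Mmp14 and Timp3 were close to absent in dKO. Mmp14 had 148 and 2 UMIs, a dKO to Ctrl ratio of 0.0504 (0.00605 to 0.185), and Timp3 had 157 and 3 UMIs, a ratio of 0.0713 (0.0146 to 0.212). FAP markers moved with these genes: 5 of the 14 had at least 100 UMIs in MuSC-like cells and all 5 were lower, against 13.4% lower and 7.51% higher over all genes, the list summing to 1521 CPM in Ctrl and 578 in dKO, and MO/MP markers to 474 and 87.3. Their part in the lower Mmp2, Mmp14, Timp1, Timp2 and Timp3 was not tested. Erythroid markers were 0.866 and 113 CPM, and cell cycle markers 847 and 467.

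Proteinases and inhibitors were next looked at in the same cells, since a cell that makes an enzyme may also make its inhibitor. At 2000 UMIs per cell, a UMI of at least 1 of the 6 proteinases was found together with at least 1 of the 4 inhibitors in 86.5% (Ctrl) and 87.5% (dKO) of FAP-like cells. In tenocyte-like cells the shares were 92.4% and 94.9%, and in EC-like cells 48.4% and 51.7%. A proteinase UMI was in 93.5% and 91.6% of FAP-like cells and an inhibitor UMI in 92.5% and 95.1%. In tenocyte-like cells a proteinase was in 93.1% and 94.9% and an inhibitor in 99.3% and 100%. With single shares this high most cells hold both kinds, and whether the kinds go together within cells was not tested. In MO/MP-like cells 25.1% and 18.5% held both, and 17.8% and 16.7% held a proteinase alone. There a proteinase was in 42.9% and 35.1% and an inhibitor in 60.8% and 60.8%. The Ear2 and Dcstamp cluster held the largest share with a proteinase alone, 46.4% in Ctrl and 25.5% in dKO. In T cell-like cells 1.06% and 0% held both.

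Across 41 sums of a cluster and library, the members most alike were Mmp2 and Mmp3 (Pearson r of log2(CPM + 10) 0.93), Adamts4 and Timp3 (0.89), Mmp2 and Timp1 (0.86), Mmp3 and Timp1 (0.85) and Mmp2 and Mmp14 (0.84). The myeloid pair Mmp12 and Mmp19 came lower (0.74). These sums share libraries and classes, so the values describe where the genes were counted and carry no p. Among all genes with at least 500 UMIs, the 3 most like Mmp2 were Fndc1, Igsf10 and Serpina3n (r 0.97). Here and for each member below, the r is that of the first gene named, and those of the others are lower. Those most like Mmp3 were Srpx, Sfrp2 and Fam171b (0.97), and those most like Timp1 were Prrx2, Srpx2 and Ccn5 (0.95). Mmp14 was most like Selenom, Fam114a1 and C1ra (0.89). Mmp12 followed F7, Rnf128 and Atp6v0d2 (0.98), all 3 of which are also leading genes of cluster 6. Mmp19 followed Guca1a, Npc2 and Rab7b (0.86). Adamts4 followed Adamts1, Osmr and Dlc1 (0.96), and Timp3 followed Tns2, Ptprg and Adarb1 (0.97). Timp2 was most like Wls, Rnase4 and Cd63 (0.82). Timp4 was most like Tcf15, Gpihbp1 and Rbp7 (0.96), of which Gpihbp1 and Rbp7 are leading genes of EC-like cluster 5.

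The rest of the pathway was compared in FAP-like and MO/MP-like cells from 5 lists. In FAP-like cells, where 2.69% of all genes were higher and 2.8% lower by 1.5-fold, 4 of 18 other MMPs were measured, and Mmp13, a collagenase, was the 1 past 1.5-fold, with 21 and 223 UMIs. Of the dKO UMIs 97.3% were in 1 cell, and without the top cell of each library its log2 ratio was -1.17. Of 18 other ADAMTS proteinases 13 were measured and 2 were lower, Adamts7 (-0.84, 88 and 51 UMIs) and Adamts17 (-1.68, 80 and 26 UMIs). The aggrecanase Adamts5, at 310.4 and 389.9 CPM, and Adamts1, at 438 and 542, were higher within 1.5-fold, as Adamts4 was. Of 8 ADAM sheddases 7 were measured and 1 was lower, Adam19 (1297 and 848 UMIs, -0.67). None of 10 measured regulators and none of 11 measured matrix substrates passed 1.5-fold, with Col1a1 at 6625 and 4755 CPM (-0.48) and Eln, which encodes elastin, at 603 and 841 (0.48).

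In MO/MP-like cells, Mmp13 was lower in dKO together with Mmp12, at 54.6 and 28.3 CPM (-0.95, -1.18 to -0.72), and was 1 of 2 other MMPs measured. None of 6 measured ADAM sheddases and not the 1 measured ADAMTS gene passed 1.5-fold, and 1 of 7 measured regulators did, Serpinh1, a collagen chaperone (214 and 86 UMIs, -0.63). Of 10 measured matrix substrates 6 were lower and 0 higher, against 3.05% lower and 4.66% higher over all genes. Fn1, which encodes fibronectin, had 506 CPM in Ctrl and 193 in dKO (-1.39, -1.48 to -1.31). The next by size were Col4a1 (-1.20), Col4a2 (-0.98) and Col1a1 (-0.95), at 20.9 and 9.07, 9.24 and 4.67, and 44.4 and 23.0 CPM. The FAP markers given above for MO/MP-like cells, which include Col1a1, moved the same way, and EC markers in these cells summed to 324 and 236 CPM. The part of both lists in the collagen values was not tested.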

How the data were processed

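The authors prepared 10x Chromium libraries and deposited raw UMI counts of called cells. The file headers name Cell Ranger 3.0.2, while the submitters' processing notes name Cell Ranger 7.0.0, Seurat 4.3.0 and mm10. No mitochondrially encoded gene was counted, so no filter on them was applied. Cells with at least 500 genes were kept (192 Ctrl and 154 dKO cells left out). Scrublet's own calls in scanpy 1.11.5 (4 and 14 cells) had not worked, so cells were ranked by score and the top 7.5% taken out (325 and 250). Scores tied at the limit in 52 and 28 cells, of which 33 and 10 were removed by order. Libraries were integrated with Seurat 5.3.0 (R 4.3.3) anchors on 2000 variable genes less the 10 members, with 40 dimensions and a resolution of 0.8. A cluster was named from marker lists with 3 or more markers at 2-fold or more of their level in the median of the other clusters and present in 10% of cells or more, and its 10 leading genes (in at least 20% of cells, at 50 CPM or more) decided between lists. This rule was settled with the clusters in view. Class names were rebuilt here and can differ from those of the study. Counts were summed per class and library, since cells are not replicates. The ratio and interval code was tested on simulated data. The 10 members, marker lists and pathway lists were chosen with earlier results of these data known. Genes named are the members, the 3 most like each, and up to 4 pathway genes past 1.5-fold per list, class and direction in FAP-like or MO/MP-like cells; others are named after their values were seen. Symbols were matched to GENCODE M21 (24458 of 24984). Some members overlap other genes on the opposite strand (Timp1 in Syn1, Timp3 in Syn3, Timp4 in Syn2, and Mmp19 and Mmp12 in part with Tmem198b and Mmp1b), and Timp2 holds Cep295nl on its own strand. How strand was treated in counting is not given in the sources used here. Alternatives were other cell, doublet, clustering, scaling and fold settings.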

Additional observations from a re-analysis of the deposited data

Results flagged for a closer look

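For 7 members the log2 ratio of dKO to Ctrl was positive in some class and negative in another, with both counting intervals clear of 0. The same held for 1530 of the 9039 genes with at least 100 UMIs in 2 or more classes (16.9%). Counting intervals narrow as UMIs rise, and the members were not matched to other genes on level. With 1 library per group the difference between the 2 classes was not tested. Mmp3 was 0.20 in FAP-like and -1.68 in tenocyte-like cells, a difference of 1.88, with 66.5% of the Ctrl tenocyte-like UMIs in 1 cell. Mmp12 was 0.57 in cycling MO/MP-like and -2.09 in MO/MP-like cells, a difference of 2.66, with 59.4% of the dKO UMIs of the cycling cells in 1 cell. Mmp19 was 1.18 in cycling MO/MP-like and -0.34 in FAP-like cells, a difference of 1.52, with 28.9% and 29.9% of the cycling cells' UMIs in 1 cell of each library. Adamts4 was 0.83 in smooth muscle/pericyte-like and -0.62 in tenocyte-like cells, a difference of 1.46, the latter on 173 and 63 UMIs. With no doublets removed these were 0.50 and -0.21, both within 1.5-fold. Timp1 was 0.81 in FAP-like and -0.63 in MuSC-like cells, a difference of 1.44. FAP markers in MuSC-like cells summed to 1521 and 578 CPM, and their part in the MuSC-like values of Timp1, Timp2 and Timp3 was not tested. Timp2 was 1.02 in the cluster led by Sfrp5 and Kcna1 (24 and 13 cells) and -0.40 in MuSC-like cells, a difference of 1.42. Timp3 was 0.22 in EC-like and -3.81 in MuSC-like cells, a difference of 4.03, the latter on 157 and 3 UMIs.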

How the results depend on the processing

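Of 31 log2 ratios with at least 100 UMIs in the 5 classes, 12 were past 1.5-fold, all 12 had the same sign under every alternative run, and 4 stayed past 1.5-fold under all of them. Of 273 alternative values 228 lay within the counting interval, 45 moved beyond it and none of those for the 12 changed sign. Of the ratios within 1.5-fold, those of Timp2 in FAP-like, MO/MP-like, tenocyte-like and smooth muscle/pericyte-like cells, of Timp3 in FAP-like, tenocyte-like and smooth muscle/pericyte-like cells and of Mmp14 in smooth muscle/pericyte-like cells did change sign under at least 1 alternative. For Timp1 in FAP-like cells the log2 ratio of 0.81 was 0.75 with no doublets removed, 0.75 as the mean of each cell's own CPM, 0.87 scaled to the median ratio of all genes and 0.76 with clusters weighted equally. For Mmp12 in MO/MP-like cells -2.09 became -1.74 by the mean of cells, -2.42 without the top cell of each library, -1.71 with clusters weighted equally and -0.87 with the cycling and Ear2 clusters included. The last 2 settings were chosen after seeing the data. The count of members past 1.5-fold in FAP-like cells, 1, was 4 (2 higher and 2 lower) at a fold of 25% above 1, where 8.31% of all genes were higher and 12.4% lower, and 0 at 2-fold, where 0.746% were higher and 0.45% lower. In MO/MP-like cells the count of 2 was 1 with the filter of 200 genes and 1000 UMIs, with members among the variable genes, by the mean of cells, without the top cell and at 2-fold. It was also 1 with the cycling and Ear2 clusters included. In EC-like cells 4 became 1, Mmp14, by the mean of cells and with clusters weighted equally, and 0 at 2-fold, while Mmp14 was within 1.5-fold with no doublets removed. In tenocyte-like cells 3 became 2 with no doublets removed (without Adamts4) and without the top cell (without Timp1), and 1 at 2-fold, and in smooth muscle/pericyte-like cells 2 became 1 with no doublets removed and at 2-fold. Under several clustering settings the Fcna and Cd163 cluster was left unnamed and so left the MO/MP-like class. No paired analysis was possible because each group has 1 library, and for the same reason no replicate could be left out. Depth limited the smaller classes: 38 dKO smooth muscle/pericyte-like and 30 dKO MuSC-like cells gave few UMIs of most members.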

Other observations

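Beyond the comparisons above, much of the Mmp13 of tenocyte-like cells came from 1 cell of each library. In dKO tenocyte-like cells it had 810 UMIs, of which 99.6% were in 1 cell, and in Ctrl tenocyte-like cells 259 UMIs, with 31.3% in 1 cell. In lymphatic EC-like cells (18 Ctrl and 13 dKO cells) the log2 ratio of Timp3 was 0.13 (-0.11 to 0.37) and that of Timp2 0.16 (-0.23 to 0.55), and both intervals included 0. In EC-like cells 11 of 12 matrix substrates were measured, of which 4 were lower and 3 higher in dKO by 1.5-fold, against 7.36% lower and 4.59% higher over all genes. The EC-like clusters differed in their shares of cells between the libraries, and smooth muscle and pericyte markers stood at 982 and 649 CPM. Their part in these values was not tested. The basement membrane collagens Col4a1 (2881 and 1674 CPM, log2 ratio -0.78) and Col4a2 (1309 and 729.7, -0.84) were among the lower ones, and Fn1 (153 and 273, 0.83) and Bgn (298 and 504, 0.76) among the higher ones. Dcn was the third of these (1.27), with 46.4% of its dKO UMIs in 1 cell. These genes were named after their values were seen.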
